A study of Mus musculus with 4 samples.

Results

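The genes described here are 6 genes of arginine metabolism, Slc7a2, Nos2, Ass1, Arg1, Arg2 and Odc1, out of 30905 genes in the count matrix. They were chosen by name, as the transporter, the enzymes and the recycling step through which myeloid cells take up and use arginine, and each symbol matched 1 gene. Their levels were followed over myeloid cell types and barcode suffixes of single-cell RNA sequencing data from mouse hearts transplanted into the abdomen and collected on day 5. The series holds 2 allogeneic grafts, from Balb/C donors, and 2 syngeneic grafts, from C57BL/6J donors, all in C57BL/6J recipients, and the mice were males of 8 to 10 weeks. Libraries were made with the 10x Chromium 3' version 3 kit, which counts each captured transcript once by a unique molecular identifier (UMI) near the 3' end.

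Arginine enters macrophages through cationic amino acid transporters and is then split between competing enzymes. Inducible nitric oxide synthase turns it into nitric oxide and citrulline, and citrulline is rebuilt to arginine by argininosuccinate synthase and argininosuccinate lyase. Arginases instead give urea and ornithine, and ornithine decarboxylase commits ornithine to the polyamines. Nos2 and Arg1 are widely used as opposite marks of macrophage activation, the first following interferon and bacterial signals and the second following interleukin 4, hypoxia and efferocytosis.

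The matrix held 53824 cells in 4 libraries, marked by barcode suffixes 1 to 4, with totals of 96020294 to 166079145 UMIs. No label or text used here pairs a suffix with a graft, so the cells were treated as 1 pooled sample, allogeneic and syngeneic grafts were not compared, and libraries are given side by side as values. There are therefore no p-values: cells are not replicates. The unit of level is CPM, the number of UMIs of a gene in every 1000000 non-mitochondrial UMIs, pooled over a group of cells. Their 95% intervals are exact Poisson intervals and those of shares are exact Clopper-Pearson intervals, and both cover counting error only. Where no cell had a UMI, the limit given is instead 3 cells over the number of cells, which is lower than the Clopper-Pearson bound. After filters, 42395 cells were kept, with median depths of 5326, 4578.5, 8582.5 and 11904 UMIs in libraries 1 to 4, and 308 barcode sequences occurred in 2 libraries. Myeloid cells, 12802 in all, made up 7.15, 28.7, 15.7 and 65.6% of the cells of libraries 1 to 4.

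The myeloid cells fell into 14 subclusters, which were formed without the 6 genes and named from marker genes. The types were split between libraries, so that type and library cannot be told apart for most of them. Of 3128 infiltrating monocyte-like cells (leading genes Ly6i, Ly6c2 and Plac8), 3126 came from library 4, as did 2519 of 2524 C1q inflammatory macrophage-like cells (Ccl8, Fcgr4, Cxcl9). Resident macrophage-like cells (Fcrls, Ms4a7, Mrc1) numbered 1381, with 317 in library 1, 139 in library 2 and 925 in library 3. A further subcluster of 869 cells, 841 of them in library 2, was led by Arg1, Ccl24, Ppbp, Ccl2 and Fn1, of which Arg1 was not used to form it. It carried 4 of the 8 markers of a Spp1 and Trem2 macrophage list. Its level of Spp1 was 5199 CPM against 2179 in resident macrophage-like cells, but its level of Trem2 was 87.6 against 766 CPM. It is therefore called here the Ccl24 Fn1 macrophage subcluster. Neutrophil-like cells formed 3 subclusters, numbered 3, 7 and 8: 1909 of 1921 cells of subcluster 3 and 632 of 634 of subcluster 7 (led by the hypoxia genes Ero1l, Egln3 and Bnip3) came from library 2, and subcluster 8 held 82 cells of library 1 and 244 of library 3. Subcluster 9, with 7 of 8 conventional dendritic markers, stayed unnamed, as did a low-depth subcluster of library 4 led by T/NK and muscle genes and 2 led by endothelial and hemoglobin genes. Among the leading genes of subcluster 9 were also Ly6d, Siglech and Ccr9 of a plasmacytoid dendritic list, at 119, 93.0 and 91.5 CPM. It thus carried markers of more than 1 dendritic type.

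RefSeq promoter windows on GRCm38.p6 were at hand for Ass1 and Odc1, 2 of the 6 genes; Slc7a2, Nos2, Arg1 and Arg2 were not matched. The stretches below are shown because these are the genes of citrulline recycling and of polyamine synthesis, and they carry motif matches, in capitals; a GC box of Ass1 at -63 and one of Odc1 at -15 from the RefSeq starts lie outside them. For Ass1, the run is the forward strand at chr2:31470222-31470251, and the capitals are an E-box (CACGTG) 36 bases before the RefSeq start at 31470270. This run lies after the earliest annotated transcript start of Ass1, at 31470207, and so within an annotated transcript span. For Odc1, the run is the forward strand at chr12:17544623-17544793, ahead of all annotated transcript starts, and the capitals are GC boxes (GGGCGG on either strand).
Ass1: cgcgcccgtcccCACGTGtcccaggttcct
Odc1: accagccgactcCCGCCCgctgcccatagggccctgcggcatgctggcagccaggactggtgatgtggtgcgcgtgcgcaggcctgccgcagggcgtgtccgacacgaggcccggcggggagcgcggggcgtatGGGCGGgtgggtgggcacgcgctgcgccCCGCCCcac
Of 32851 promoter windows of 250 bases, 6.02% held the E-box and 32.7% held a GC box on either strand, so the second is common. Ass1 held 1 match to each, and Odc1 held 4 GC boxes and 0 E-boxes. The hypoxia response core ACGTG, found in 16.6% of windows, matched Ass1 at the E-box, which contains it on both strands, and Odc1 had 0 matches. A gamma-activated site (TTCNNNGAA, 7.02% of windows) and an interferon-stimulated response element (GAAA, 2 free bases and GAAA, 2.98%) each had 0 matches in both windows.

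Slc7a2 (chr8:40862396-40922308, GRCm38, forward strand) encodes the cationic amino acid transporter CAT2, which brings arginine into activated macrophages. Its highest myeloid level was in the Ccl24 Fn1 macrophages of library 2, at 97.5 CPM (95% interval 92.1 to 103, n = 841 cells), where 36.6% of cells had a UMI. The resident macrophage-like cells of the same library came next, at 29.4 CPM (22.4 to 38.1, n = 139). Of their Slc7a2 UMIs, 7 cells held 69.0%, and a single cell held 21, so this level rests largely on few cells. Infiltrating monocyte-like cells of library 4 had 28.1 CPM (26.5 to 29.7, n = 3126) and C1q macrophage-like cells 24.5 CPM (23.0 to 26.0, n = 2519). The intervals of the monocyte-like cells and the resident cells of library 2 overlapped, so their order is not set. Resident macrophage-like cells of libraries 1 and 3 were lower, at 9.45 CPM (6.78 to 12.8) and 3.51 CPM (2.57 to 4.68), and in the neutrophil-like subclusters 3 and 7 the gene was rare, at 1.47 and 2.99 CPM. Nonclassical monocyte-like cells of library 1 had a UMI in 0 of 69 cells, which allows a share of up to 4.35%. Outside the myeloid cells, fibroblast-like cells had levels of the same order, with 39.0, 39.8, 53.3 and 91.2 CPM in libraries 1 to 4. Of the 31-base words in the last 600 bases of the Slc7a2 transcript, 7.37% also occur in 313 other genes, of which 264 are counted in the matrix. The gene also overlaps Gm26584 on the opposite strand, so low counts of Slc7a2 are uncertain.

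**Figure D1:**
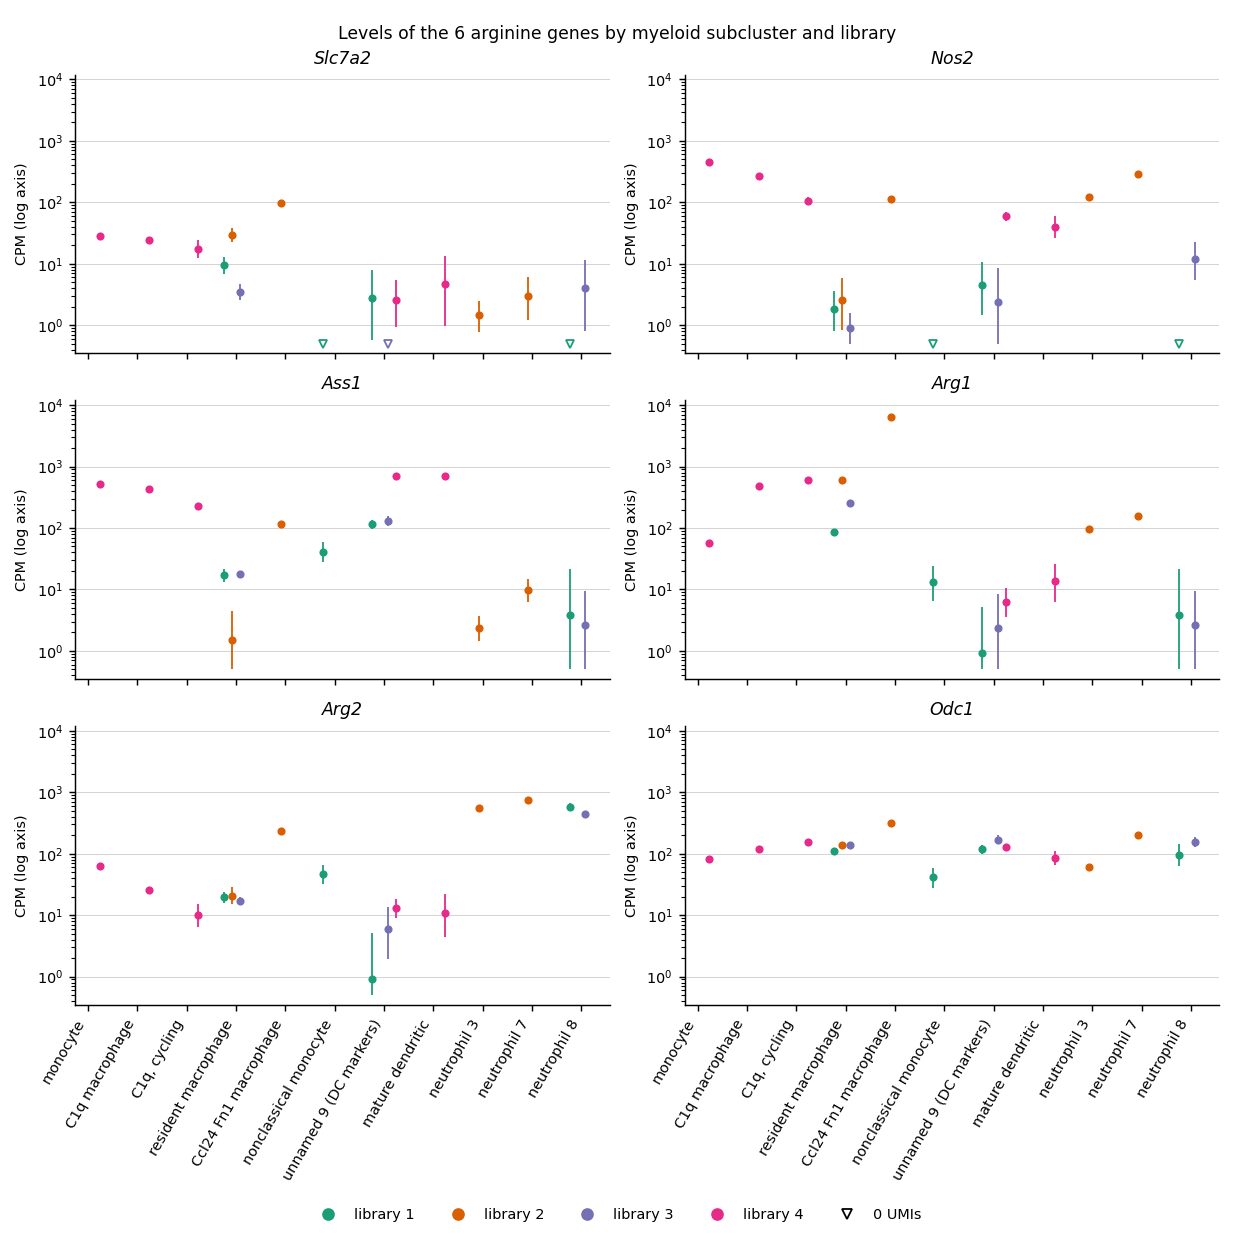
CPM (log axis) of each of the 6 genes in 11 myeloid subclusters, with 1 point per library holding at least 50 cells of the subcluster, exact Poisson 95% intervals as bars (cut off at the axis floor) and open triangles for 0 UMIs. Nos2 was highest in the monocyte-like cells of library 4 (455 CPM), Arg1 and Slc7a2 in the Ccl24 Fn1 macrophages of library 2 (6377 and 97.5 CPM), Arg2 in neutrophil-like cells, and Ass1 in library 4.

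Nos2 (chr11:78920787-78960254, forward strand), the inducible nitric oxide synthase, was highest in the infiltrating monocyte-like cells of library 4. They had 455 CPM (449 to 462), and 67.4% of 3126 cells (65.7 to 69.0%) had a UMI, or 28.8% of the 3123 cells that could be thinned to 1000 UMIs each. C1q macrophage-like cells of the same library had 264 CPM (260 to 269), with 73.2% of cells positive, and 21.8% after thinning. The raw share was thus higher in the C1q cells, which were deeper (median 18075 against 13311 UMIs), and the level and the thinned share were higher in the monocyte-like cells. Cells with 10 or more Nos2 UMIs made up 22.8% of the monocyte-like and 15.9% of the C1q cells of library 4, and the most in a cell was 75 and 79 UMIs.

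In library 2, Nos2 reached 284 CPM (263 to 307) in neutrophil-like subcluster 7, 123 CPM (115 to 130) in neutrophil-like subcluster 3 and 112 CPM (106 to 118) in the Ccl24 Fn1 macrophages. The interval of subcluster 7 overlapped that of the C1q cells, and those of subcluster 3 and the Ccl24 Fn1 cells overlapped each other. Resident macrophage-like cells had next to none: 1.84 CPM (8 UMIs in 317 cells) in library 1, 2.54 CPM (5 UMIs in 139 cells) in library 2 and 0.916 CPM (12 UMIs in 925 cells) in library 3. Nor did neutrophil-like subcluster 8 stand out, with 0 UMIs in the 82 cells of library 1, which allows a share of up to 3.66%, and 11.9 CPM (5.44 to 22.6) in library 3. An unnamed cluster outside the myeloid set had 7 of 8 granulocyte markers and 82.5 CPM of Nos2 (71.2 to 95.2). Of its 768 cells, 765 were of library 4. As a gauge of background, T/NK-like cells had 0.704, 5.42, 3.72 and 14.6 CPM of Nos2 in libraries 1 to 4. In library 4 that was a UMI in 18.4% of T/NK-like cells at a median of 11600 UMIs, and 1.77% after thinning. B-like cells of library 4 had 53.3 CPM (36.2 to 75.6). The 59.3 CPM of subcluster 9 and the 40.2 CPM of mature dendritic-like cells of that library lay within this interval but above the T/NK-like level. In subcluster 9 of library 4, 9 of 177 cells held 69.3% of the Nos2 UMIs. With a finer subclustering, a group of 227 cells of library 4 had 96.1 CPM (85.5 to 108). The marker rule named it conventional dendritic, but Ly6d and Siglech were also among its leading genes. Neither expression by these cells nor the part of free RNA was tested.

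How the monocyte-like and C1q macrophage-like cells of library 4 were divided set the Nos2 level of the first. With at least 500 genes required per cell, the named monocyte-like subcluster held 1527 cells at 242 CPM, and the cells highest in Nos2 formed an unnamed subcluster of 1975 cells at 605 CPM. With a finer subclustering, at a resolution of 1.0, a monocyte-like group of 1585 cells of library 4 led by Ly6i, Nos2 and Cfb had 638 CPM (628 to 648), and another of 1066 cells led by Ly6c2 and Plac8 had 238 CPM (230 to 246). Over all macrophage-like cells of library 4, with no such division, the level was 351 CPM (347 to 355, n = 5774 cells), against 2.92, 95.5 and 2.33 CPM in libraries 1, 2 and 3. Library 4 held 34061 of the Nos2 UMIs of the kept cells, 92.3% of them in myeloid cells, whereas myeloid cells held 0.935% in library 1 and 1.58% in library 3.

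Ass1 (chr2:31470207-31520672, forward strand), which condenses citrulline with aspartate in the recycling of arginine, had its 5 highest myeloid levels in library 4. Mature dendritic-like cells of that library had 701 CPM (638 to 769, n = 60) and subcluster 9, with dendritic markers, had 694 CPM (661 to 728, n = 177), which overlapped. Monocyte-like cells followed with 529 CPM (522 to 536) and C1q macrophage-like cells with 432 CPM (426 to 438), and 89.2 and 89.3% of these cells had a UMI. The same subcluster 9 had 114 CPM (95.1 to 136) in library 1 and 129 CPM (106 to 156) in library 3, well under its level in library 4. Whether its mix of dendritic types differed between libraries was not tested. The Ccl24 Fn1 macrophages of library 2 had 118 CPM (112 to 124), and resident macrophage-like cells had 17.1, 1.52 and 17.7 CPM in libraries 1, 2 and 3. Neutrophil-like cells had 2.37 to 9.84 CPM in the 4 groups of at least 50 cells, the lowest of the named types beside the resident cells of library 2. These groups were of libraries 1 to 3. The unnamed cluster with granulocyte markers, mostly of library 4, had 62.1 CPM (52.4 to 73.2), with a UMI in 13.9% of 768 cells. The part of free RNA in that level was not tested. Of the 31-base words in the last 600 bases of the Ass1 transcripts, 44.6% also occur in Gm5424, which is not counted in the matrix, so part of the Ass1 reads could have been lost or shared in a way that the counts do not show.

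Arg1 (chr10:24915221-24927484, reverse strand), the cytosolic arginase, was concentrated in a single subcluster. The Ccl24 Fn1 macrophages of library 2 had 6377 CPM (6333 to 6421), with a UMI in 86.7% of 841 cells (84.2 to 88.9%) and in 75.0% of the 820 cells thinned to 1000 UMIs. Their positive cells held a median of 76 UMIs and at most 698, and 66.9% of the cells had 10 or more. This subcluster, 869 cells of the 42395 kept, held 67.5% of all Arg1 UMIs, and C1q macrophage-like cells held 18.1%. All macrophage-like cells together held 93.9%.

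The other named types of this subclustering were far lower. Resident macrophage-like cells of library 2 had 615 CPM (581 to 651) and the 73 cycling C1q macrophage-like cells of library 4 had 603 CPM (572 to 636), which overlapped. The C1q macrophage-like cells of library 4 had 483 CPM (477 to 490). Resident macrophage-like cells had 258 CPM (249 to 267) in library 3 and 86.7 CPM (78.1 to 95.9) in library 1, and monocyte-like cells of library 4 had 56.4 CPM (54.1 to 58.7). Nonclassical monocyte-like cells had 13.3 CPM (6.37 to 24.4) in library 1. In C1q macrophage-like and resident cells these means hide a few rich cells. The top 5% of C1q cells, 126 cells, held 73.5% of the Arg1 UMIs of that subcluster in library 4, with up to 345 UMIs in a cell, and in the Ccl24 Fn1 subcluster the top 5% held 23.3%. The top 5% of resident cells held 97.1, 53.5 and 88.4% of the Arg1 UMIs in libraries 1, 2 and 3. Of the 73 cycling C1q cells of library 4, 4 cells held 51.3%, with up to 266 UMIs in a cell. The intervals leave out this spread between cells, so the order of these groups is not set.

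The finer subclustering gave these cells their own groups. A C1q macrophage-like group of 419 cells of library 4, led by Ccl8 and Ccl7, had 1656 CPM of Arg1 (1631 to 1681), with a UMI in 65.4% of cells, against 138 CPM (134 to 142) in the remaining 2019 non-cycling C1q cells. Both groups had Nos2, at 191 CPM (183 to 200) and 279 CPM (274 to 285). A resident macrophage-like group led by Cd163, Pf4 and Lyve1 had 617 CPM of Arg1 in library 2 (n = 143) and 1182 CPM in library 3 (n = 130), with 2.54 and 1.33 CPM of Nos2. A group led by Gdf15, Fcrls and Cx3cr1 had 9.95 CPM of Arg1 in library 1 (n = 277) and 13.8 CPM in library 3 (n = 798). The marker rule named this second group C1q inflammatory macrophage, although Fcrls also led the resident macrophage-like subcluster. In library 3, where both groups had at least 50 cells, Arg1 was thus higher in the group with Cd163 and Lyve1. That group held 3567 Arg1 UMIs in library 3, against 3378 in the resident macrophage-like subcluster, so it also drew on cells of other subclusters. A further group, 127 cells of library 2, was named infiltrating monocyte by the marker rule. It had 2948 CPM of Arg1 (2794 to 3109), with a UMI in 70.9% of cells. The finer group of library 2 led by Ccl24, Arg1 and Ppbp had 6519 CPM (n = 709). At this resolution, monocyte-named cells were thus not all low in Arg1.

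In library 2, Arg1 UMIs were also found in cells of other classes. Erythroid-like cells had 189 CPM (172 to 207) there, with a UMI in 19.5% of 1871 cells at a median of 863 UMIs, and T/NK-like cells had 50.2 CPM (35.3 to 69.1). Endothelial-like cells had 108 CPM in library 2 against 0.508, 1.24 and 7.39 CPM in libraries 1, 3 and 4, and smooth muscle-like cells had 19.3 CPM in library 2, against 0 UMIs in library 1 and 0.356 CPM in library 3. The 96.5 and 157 CPM of Arg1 in neutrophil-like subclusters 3 and 7 of library 2 lay above the T/NK-like and below the erythroid-like level. Their thinned shares of 8.22 and 10.1% were below the 12.8% of erythroid-like cells. Of the cells of these subclusters, 13 and 8 had 10 or more Arg1 UMIs. Neither expression by these cells nor the part of free RNA was tested. The C1q macrophage-like level in library 4 was far above the T/NK-like level of that library, 7.88 CPM (6.76 to 9.14), and the resident levels in libraries 1 and 3 were above 16.2 and 13.7 CPM in T/NK-like cells.

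Arg2 (chr12:79130777-79156301, forward strand), the mitochondrial arginase, had its highest levels in neutrophil-like cells. By number, granulocyte-like cells held 42.2% of all Arg2 UMIs and the more numerous and deeper macrophage-like cells 42.9%. Both neutrophil-like subclusters of library 2 were high, subcluster 7 at 746 CPM (712 to 782) and subcluster 3 at 544 CPM (529 to 560). Subcluster 8 had 575 CPM (486 to 675) in library 1 and 443 CPM (396 to 493) in library 3, so the gene was high in neutrophil-like cells of each library that held at least 50 of them. The 765 library 4 cells of the unnamed cluster with 7 of 8 granulocyte markers had 481 CPM (453 to 511). The Ccl24 Fn1 macrophages had 233 CPM (225 to 242), a level between the neutrophils and the other macrophages. This subcluster also had 7 of 8 granulocyte markers in at least 10% of its cells, with a summed level of 5947 CPM against 222804 CPM in neutrophil-like subcluster 3, and the part of free or shared neutrophil RNA in its Arg2 was not tested. Monocyte-like cells had 62.2 CPM (59.8 to 64.6), C1q macrophage-like cells 25.8 CPM (24.4 to 27.3), and resident cells 19.6, 20.8 and 17.2 CPM in libraries 1, 2 and 3. The gene overlaps Vti1b and Gm48780 on the opposite strand.

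Odc1 (chr12:17544794-17551505, forward strand), which makes putrescine from ornithine, varied least among the 6 genes. It was highest in the Ccl24 Fn1 macrophages, at 317 CPM (307 to 327, n = 841), followed by neutrophil-like subcluster 7 with 204 CPM (186 to 223). Resident cells had 111, 138 and 137 CPM in libraries 1, 2 and 3, C1q macrophage-like cells 118 CPM (115 to 121) and monocyte-like cells 82.8 CPM (80.0 to 85.6). Library 2 also had the highest Odc1 level in fibroblast-, pericyte-, endothelial- and smooth muscle-like cells. Fibroblast-like cells had 771 CPM there (759 to 782, n = 1039) against 137, 181 and 151 CPM in libraries 1, 3 and 4. Pericyte-like cells had 310 CPM against 161 and 124 CPM in libraries 1 and 3, and endothelial-like cells had 283 CPM against 148, 165 and 198 CPM in libraries 1, 3 and 4. The pericyte-like and smooth muscle-like classes are each 1 cluster, but the fibroblast-like cells of library 2 were mostly 1019 cells of a cluster led by Prg4, Cxcl5 and Ptx3 that held 1 and 6 cells of libraries 1 and 3, and the endothelial-like cells of library 2 were also in clusters of their own, so there cluster and library cannot be told apart. T/NK-like cells did not follow this order, with 283, 339, 400 and 404 CPM in libraries 1 to 4. Of the 31-base words in the last 600 bases of Odc1 transcripts, 36.0% also occur in 16 other gene models, of which 0 are counted in the matrix, so the count is uncertain.

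**Figure D2:**
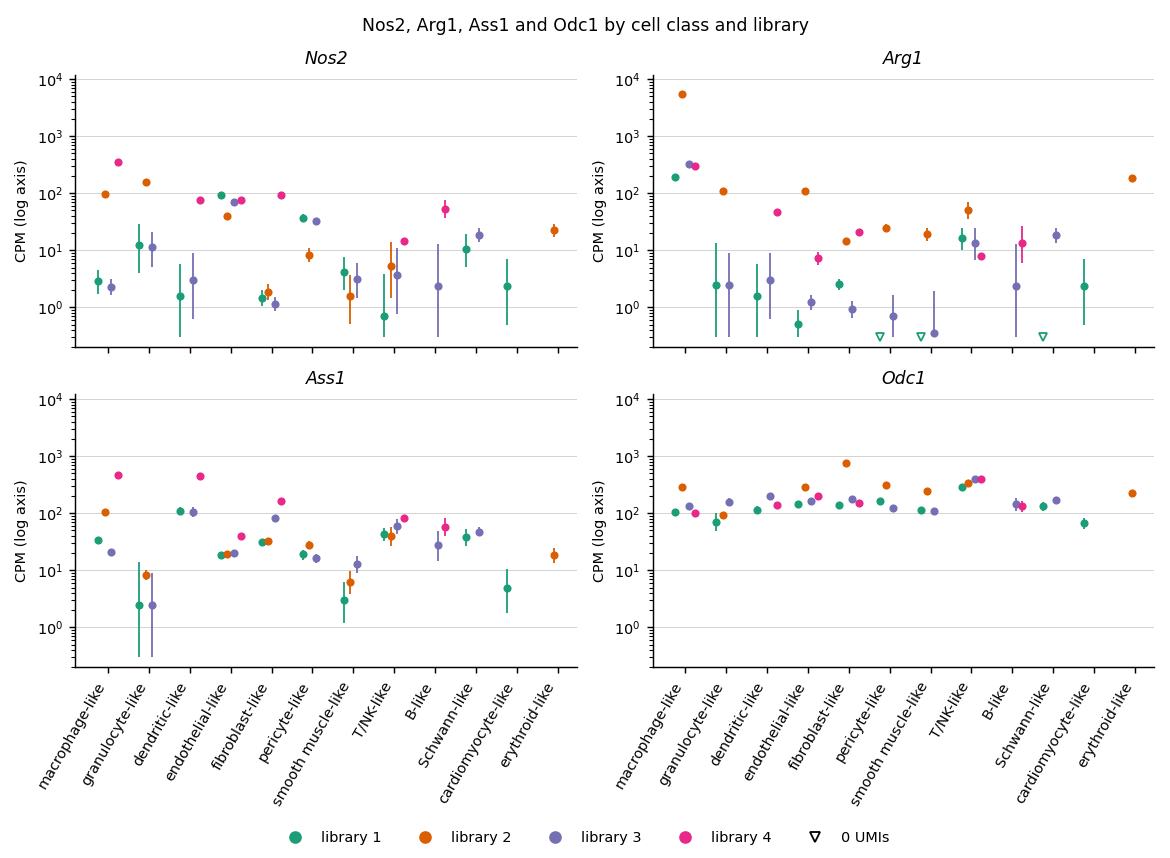
CPM (log axis) of Nos2, Arg1, Ass1 and Odc1 in 12 cell classes, with 1 point per library holding at least 50 cells of the class, exact Poisson 95% intervals as bars (cut off at the axis floor) and open triangles for 0 UMIs. Nos2 in fibroblast-like cells was 93.5 CPM in library 4 and under 2 CPM in the other libraries, and Odc1 in fibroblast-like cells was 771 CPM in library 2.

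Outside the myeloid cells, Nos2 and Ass1 also differed between libraries, in classes made of different clusters. Of the library 4 cells, 556 of 562 fibroblast-like cells were in a cluster led by Timp1, Cfd and Cxcl14 and all 638 endothelial-like cells in one led by Ubd, Gbp2b and Cxcl9, which together held 11 cells of the other libraries, so cluster and library cannot be told apart in these values. Endothelial-like cells had Nos2 in every library, with 95.1 CPM (91.2 to 99.1, n = 3696), 39.8 (37.8 to 41.9, n = 4771), 69.9 (67.2 to 72.7, n = 3396) and 75.2 CPM (69.4 to 81.4, n = 638) in libraries 1 to 4, and they held 15.1% of all Nos2 UMIs. Fibroblast-like cells had 93.5 CPM of Nos2 in library 4 (88.6 to 98.5, n = 562) and 1.48, 1.90 and 1.16 CPM in libraries 1, 2 and 3. After thinning, 8.28% of fibroblast-like cells of library 4 had a Nos2 UMI against 1.77% of T/NK-like and 6.98% of B-like cells, so the share was close to that of the B-like cells, at a level that was higher. Ass1 in fibroblast-like cells was 161 CPM (154 to 167) in library 4 against 31.1, 33.1 and 81.4 CPM in libraries 1, 2 and 3, and in endothelial-like cells 40.5 CPM against 18.3, 19.3 and 20.3 CPM. The Ass1 level was thus higher in library 4 in both of these classes too. T/NK-like cells, pooled over all libraries, had 78.5 CPM of Ass1 (75.1 to 82.1), above the endothelial-like level of library 4. The part of free RNA in these Ass1 levels was not tested.

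Some cells had a UMI of both Nos2 and Arg1. The shares with both were not compared with those expected from the share of each gene alone. In the Ccl24 Fn1 macrophages of library 2, 222 of 841 cells (26.4%, 23.4 to 29.5%) had a UMI of both, 507 (60.3%) had Arg1 without Nos2, 9 (1.07%) had Nos2 without Arg1 and 103 (12.2%) had neither. In the C1q macrophage-like cells of library 4 the shares were 26.0% with both, 47.2% with Nos2 alone, 9.05% with Arg1 alone and 17.8% with neither. In the monocyte-like cells, 374 of 3126 had both, and 55.4, 3.42 and 29.2% had Nos2 alone, Arg1 alone and neither. Requiring 3 or more UMIs of each gene, both were found in 135 cells of the first, 214 of the second and 82 of the third. Resident macrophage-like cells had both in 1 of 317, 2 of 139 and 3 of 925 cells of libraries 1, 2 and 3. The deeper cells had both more often: in the Ccl24 Fn1 subcluster, cells with both had a median of 17462 UMIs and cells with neither 7472.

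**Figure D3:**
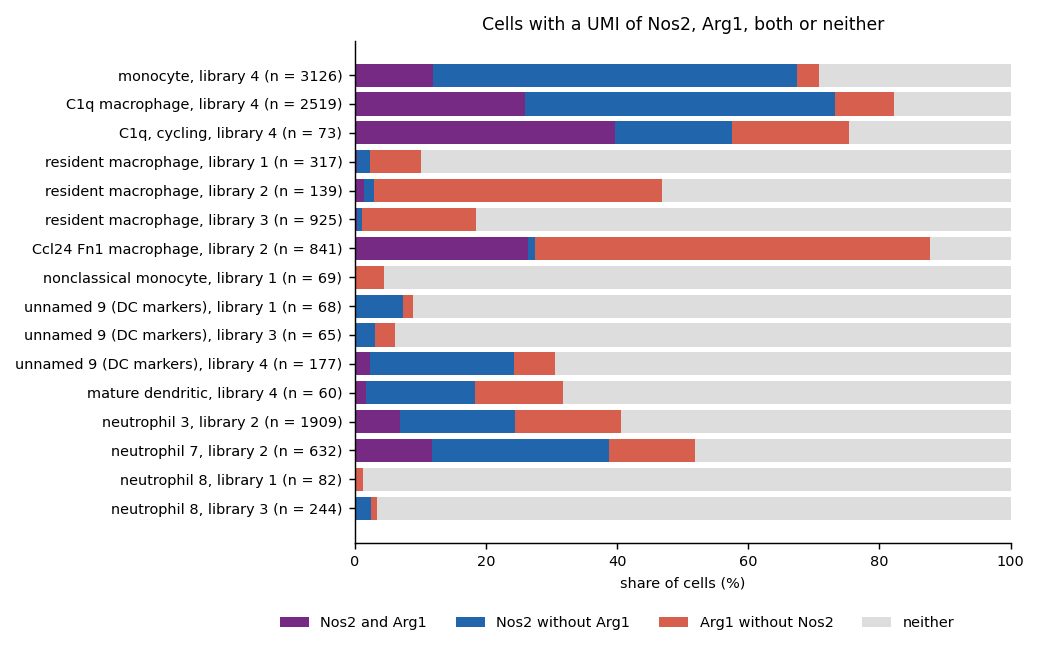
Shares of cells (%) with a UMI of Nos2 and Arg1, of either alone or of neither, in each subcluster and library with at least 50 cells, with the number of cells beside each bar. Nos2 alone fills most of the library 4 monocyte-like bar (55.4%), Arg1 alone most of the Ccl24 Fn1 bar of library 2 (60.3%), and both genes are found in 26.0% of C1q macrophage-like cells.

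Nos2 was compared in cells with and without Arg1 of the same subcluster and library. Among Ccl24 Fn1 macrophages of library 2, a Nos2 UMI was found in 30.5% of 729 cells with Arg1 (27.1 to 33.9%) and in 8.04% of 112 cells without it (3.74 to 14.7%). The first were deeper, with medians of 15681 and 8328.5 UMIs. With each cell thinned to 1000 UMIs, which left 21 of the 841 cells out, cells were split anew by an Arg1 UMI in the thinned counts. The shares were then 9.59% (7.38 to 12.2%) and 2.44% (0.797 to 5.60%). Cells that lost their Arg1 UMIs by thinning moved to the second group, so these are not the same groups of cells. From all UMIs, without thinning, the Nos2 levels were 120 and 30.6 CPM, the second resting on 9 cells with a Nos2 UMI. Read the other way, cells of this subcluster with Nos2 had 7727 CPM of Arg1 and those without had 5695 CPM. In monocyte-like cells of library 4, Nos2 was found in 77.8% of 481 cells with Arg1 and 65.5% of 2645 cells without. After thinning and the new split, with 88 cells keeping an Arg1 UMI, the shares were 46.6 and 28.3%. Of these 481 cells, 326 had a single Arg1 UMI, and 11.1% of the T/NK-like cells of library 4 had one or more against 15.4% of the monocyte-like cells, so this split rests mostly on single UMIs near the background share. In C1q macrophage-like cells the levels with and without Arg1 had overlapping intervals, at 265 CPM (258 to 273) and 263 CPM (257 to 270), whereas the finer group of C1q cells rich in Arg1, described above, had less Nos2 than the remaining C1q cells, at 191 against 279 CPM. In neutrophil-like subcluster 7 the shares were 47.1 and 36.0%, but 17.7 and 19.4% after thinning and the new split, with intervals that overlapped.

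**Figure D4:**
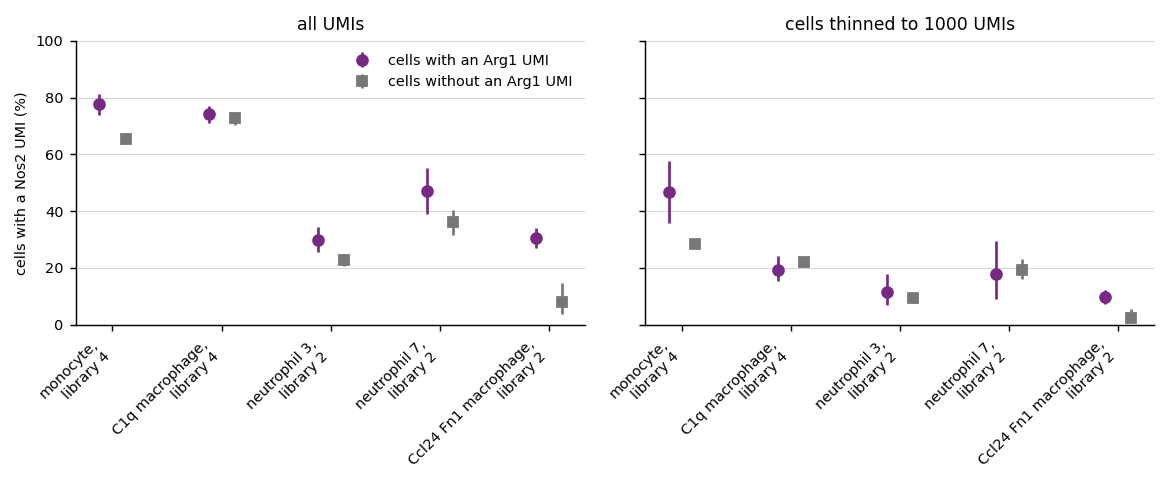
Share of cells with a Nos2 UMI (%) among cells with (circles) and without (squares) an Arg1 UMI in 5 pairs of subcluster and library, from all UMIs (left) and from cells thinned to 1000 UMIs (right), with exact Clopper-Pearson 95% intervals. On the right, Arg1 was also read from the thinned counts, so the groups of cells differ from those on the left. In the Ccl24 Fn1 macrophages the shares were 30.5 and 8.04% from all UMIs and 9.59 and 2.44% after thinning.

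The other members followed Arg1 and Nos2 unevenly. Slc7a2 was higher in cells with Arg1 in the Ccl24 Fn1, C1q and monocyte-like cells: 105 against 14.9 CPM in the Ccl24 Fn1 cells, 37.2 against 16.1 CPM in the C1q cells and 51.8 against 22.9 CPM in the monocyte-like cells, with intervals that did not overlap. Resident cells did not share one pattern: with and without Arg1, Slc7a2 was 46.6 (26 cells with Arg1) and 3.97 CPM in library 1, but 21.5 and 38.0 CPM in library 2 and 4.63 and 3.11 CPM in library 3, where the intervals overlapped. Only 16 of the 317 resident cells of library 1 had a Slc7a2 UMI. A single cell held 23 UMIs, so the difference there rests largely on 1 cell. In library 2, 23 of 139 resident cells had a Slc7a2 UMI and 1 cell held 21 UMIs, so those values also lean on 1 cell. Slc7a2 was likewise higher in monocyte-like cells with Nos2, at 34.8 against 10.8 CPM, and in C1q cells with Nos2, at 28.9 against 10.2 CPM. Ass1 went the other way in the C1q cells, with 358 CPM (350 to 367) in cells with Arg1 and 481 CPM (473 to 489) in cells without. In these cells Ass1 was higher with Nos2, at 460 against 343 CPM. Odc1 was 331 CPM with Arg1 and 167 CPM without in the Ccl24 Fn1 subcluster, and 121 and 116 CPM, with overlapping intervals, in the C1q cells.

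The cells with and without Arg1 in the Ccl24 Fn1 subcluster of library 2 differed in other genes. Folds here have 10 CPM added to both sides, genes with at least 50 CPM on either side are counted, and a fold of 2 is the mark used. Of 2996 genes, 2.3% were at least 2-fold higher and 2.47% at least 2-fold lower in cells with Arg1. Among those furthest higher were Ppbp, a platelet chemokine (448 against 8.35 CPM), Ccl7, a monocyte chemokine (1227 against 141 CPM, 8.18-fold), Inhba, the activin A subunit (526 against 59.4 CPM, 7.73-fold), Mcub, a subunit of the mitochondrial calcium uniporter (176 against 5.57 CPM), and Serpinb2 (143 against 2.78 CPM, with 3 UMIs in cells without Arg1). Of 8 hypoxia genes, 5 were 2-fold higher, among them Bnip3 (3.18-fold) and Vegfa (2.32-fold), and their median log2 fold was 1.09 against -0.11 over all genes. The inflammatory list had Il6 (3.41-fold) and Ptgs2 (2.11-fold) higher, and Ccl5 lower, at 6.51 against 79.8 CPM. Cells without Arg1 had more of the monocyte and neutrophil genes Plac8 (879 against 179 CPM), S100a8 (8366 against 3426 CPM) and Il1r2 (713 against 172 CPM), and the part of neutrophil RNA in this difference was not tested. The split was by detection at the unequal depth given above, so the values do not show how cells with high and low Arg1 differ. Whether the 2 sets differ in cell type was not tested.

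The 5 genes with the largest folds between monocyte-like cells with and without Nos2 in library 4 were Inhba (288 against 81.3 CPM, 3.27-fold), Gm15056 (3.04-fold), Il1a (61.5 against 14.5 CPM, 2.91-fold), AA467197 (2.72-fold) and Arg1 itself (70.2 against 21.2 CPM, 2.57-fold). Of 3005 genes, 0.499% were at least 2-fold higher and 0.0666% lower, and the cells with Nos2 were deeper (median 14024 against 11676 UMIs). Of the 8 interferon gamma genes 0 passed that mark, and Cxcl9 was 2998 and 2640 CPM in cells with and without Nos2. From the inflammatory list Ptgs2 (2.14-fold) and Ccl5 (2.28-fold) were higher, and from 7 hypoxia genes Vegfa was (59.7 against 24.4 CPM, 2.03-fold). At this split, both sets of cells thus had high interferon gamma genes, and few genes passed the mark. Cells were split by detection at unequal depth, so the values do not show how cells with high and low Nos2 differ.

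In a comparison added after the data were seen, C1q macrophage-like cells of library 4 with 3 or more Arg1 UMIs (n = 454) were set against those with none (n = 1636). Of 2996 genes, 1.8% were at least 2-fold higher and 0.0668% lower. Pf4, a platelet factor also made by resident macrophages, was 672 against 17.2 CPM, Fn1 was 521 against 17.3 CPM, Apoe was 6410 against 1064 CPM, Ppbp 58.6 against 0.256 CPM and Ltc4s, a leukotriene synthase, 51.9 against 0.439 CPM. Of the markers of other macrophage types, Trem2 (260 against 55.3 CPM), Folr2 (84.7 against 13.6 CPM) and Mrc1 (100 against 32.7 CPM) were also higher, and Ly6c2 was 410 against 786 CPM. Nos2 was 254 and 263 CPM, and Cxcl9 2248 and 3817 CPM. Of the 5 largest folds in these C1q cells, Ppbp was also among the 5 largest in the Ccl24 Fn1 subcluster.

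Against resident macrophage-like cells, all 6 members were at least 2-fold higher in the Ccl24 Fn1 subcluster, where 8.9% of 3224 genes were. Their folds were 23.6 for Arg1, 10.8 for Nos2, 8.49 for Arg2, 5.94 for Slc7a2, 4.83 for Ass1 and 2.27 for Odc1, with a median log2 fold of 2.83 against 0.07 over all genes. Nos2, Slc7a2, Ass1 and Arg2 were counted only through the Ccl24 Fn1 side, being at 1.29, 7.47, 15.9 and 18.1 CPM in resident cells. Arg1, Slc7a2 and Odc1 were also highest in the Ccl24 Fn1 subcluster of all named types. The count and the median are therefore descriptions only. The 2 subclusters are mainly of different libraries, but library 2 held 139 resident cells, and within it the 6 genes kept this order of the subclusters with intervals that did not overlap. There Arg2 was 233 against 20.8 CPM, Nos2 112 against 2.54 CPM and Ass1 118 against 1.52 CPM. All 8 hypoxia genes were 2-fold higher in the Ccl24 Fn1 subcluster (median log2 fold 2.17), and 4 of 6 interferon gamma genes were 2-fold lower against 11.8% of all genes. The inflammatory list had 3 of 6 genes higher and 1 lower, and the alternative activation list 1 of 7 higher and 3 lower. Of 13 other pathway genes, Smox, Srm, Eif5a and Gch1 were 2-fold higher and the creatine genes Gatm and Ckb 2-fold lower.

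Between the monocyte-like cells of library 4 and the Ccl24 Fn1 subcluster, Nos2 (3.83-fold) and Ass1 (4.30-fold) were higher in the first, where 13.7% of 3256 genes passed that mark. The other 4 members were lower, where 8.23% were: Odc1 was 0.289-fold, Arg2 0.302-fold, Slc7a2 0.367-fold and Arg1 0.0106-fold the level of the Ccl24 Fn1 cells. Of 8 interferon gamma genes 6 were higher in the monocyte-like cells, with a median log2 fold of 4.33, for example Cxcl9 with 2904 against 1.22 CPM. Slc7a2 was counted only through its level in the Ccl24 Fn1 cells. Library and type cannot be told apart here.

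Within library 4, C1q macrophage-like cells had 7.48-fold the Arg1 of the monocyte-like cells, and 1.57% of 3065 genes were 2-fold higher. Arg2 was 0.497-fold, where 1.6% of genes were at least 2-fold lower, and was counted only through its level in the monocyte-like cells. Nos2 (0.589-fold), Ass1 (0.821-fold) and Odc1 (1.38-fold) did not reach the mark, and Slc7a2, at 24.7 and 28.0 CPM, was under the level needed to be counted. None of the 8 interferon gamma genes passed it in either direction.

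Of 47 further genes of arginine pathways, grouped as 9 lists, those that reached 20 CPM in a named subcluster showed where the neighbouring steps lay. Among 9 transporters of arginine and ornithine, 4 reached it. Slc7a1, the constitutive transporter CAT1, was highest in the Ccl24 Fn1 subcluster, at 27.3 CPM, where Slc7a2 was highest too. Slc7a7, which exports cationic amino acids with Slc3a2, was 48.7 CPM in resident cells and 47.1 CPM in C1q cells. Asl, the lyase that completes citrulline recycling, was 96.3 CPM in mature dendritic-like cells, where Ass1 was highest, and 49.5 CPM in monocyte-like cells. The other nitric oxide synthases were low, with Nos3 at most 11.1 CPM and Nos1 at most 0.238 CPM in the named subclusters.

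Several cofactor and polyamine genes were highest in the neutrophil-like subcluster 7. Gch1, which starts the synthesis of the tetrahydrobiopterin that nitric oxide synthase needs, was 292 CPM in neutrophil-like subcluster 7, 168 CPM in subcluster 3, 127 CPM in Ccl24 Fn1 cells and 104 CPM in monocyte-like cells, and Pts, the next enzyme, was 195 CPM in subcluster 7. Of 7 cofactor genes 5 reached 20 CPM, of which 2 were highest in subcluster 7 and 2 in the cycling C1q cells. Of 13 polyamine genes, 12 reached 20 CPM, 6 of 7 in synthesis and control and 6 of 6 in breakdown and use. In synthesis and control, 2 were highest in subcluster 7 and 2 in the cycling C1q cells. In breakdown and use, 2 were highest in subcluster 7 and 2 in the Ccl24 Fn1 cells. No share of all genes highest in each subcluster is given, so these counts describe the lists and show no trait of these pathways. Srm, spermidine synthase, was 88.8 CPM in the Ccl24 Fn1 cells against 33.7 CPM in resident and 13.4 CPM in monocyte-like cells, and Eif5a, the factor that is modified with spermidine, was 990 CPM there against 440 and 608 CPM. Smox and Sat1, which oxidise and acetylate polyamines, were 931 and 1543 CPM in neutrophil-like subcluster 7, against 335 and 599 CPM in subcluster 3. Azin1, the antizyme inhibitor that spares ornithine decarboxylase, was 234 CPM in subcluster 7 and 110 CPM in Ccl24 Fn1 cells.

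The remaining branches were less marked. Of the urea cycle genes Cps1, Nags and Otc, 0 of 3 reached 20 CPM, and none exceeded 0.238 CPM. Oat, which turns ornithine toward proline and glutamate, lay between 21.6 CPM in neutrophil-like subcluster 3 and 99.5 CPM in cycling C1q cells, and 2 of 6 genes of that branch reached the mark. Of 3 methylarginine genes, Prmt1 reached it and was highest in the cycling C1q cells, with 96.6 CPM in Ccl24 Fn1 cells and 55.7 CPM in monocyte-like cells. Gatm, which draws on arginine for creatine, was 174 CPM in C1q cells, 127 CPM in resident cells and 117 CPM in monocyte-like cells, but 15.5 CPM in Ccl24 Fn1 cells, and all 3 creatine genes reached the mark. In an alternative activation list of 8, Mrc1 was 588 CPM in resident cells and 144 CPM in Ccl24 Fn1 cells. Chil3 was 3288 CPM in Ccl24 Fn1 cells and 14.2 CPM in resident cells, beside 3865 CPM in neutrophil-like subcluster 3. Retnla was 22.5 CPM in Ccl24 Fn1 cells. Among the named subclusters, 0 of the 8 genes were highest in Ccl24 Fn1 cells and 3 were highest in resident cells. These counts too have no share over all genes beside them.

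**Figure D5:**
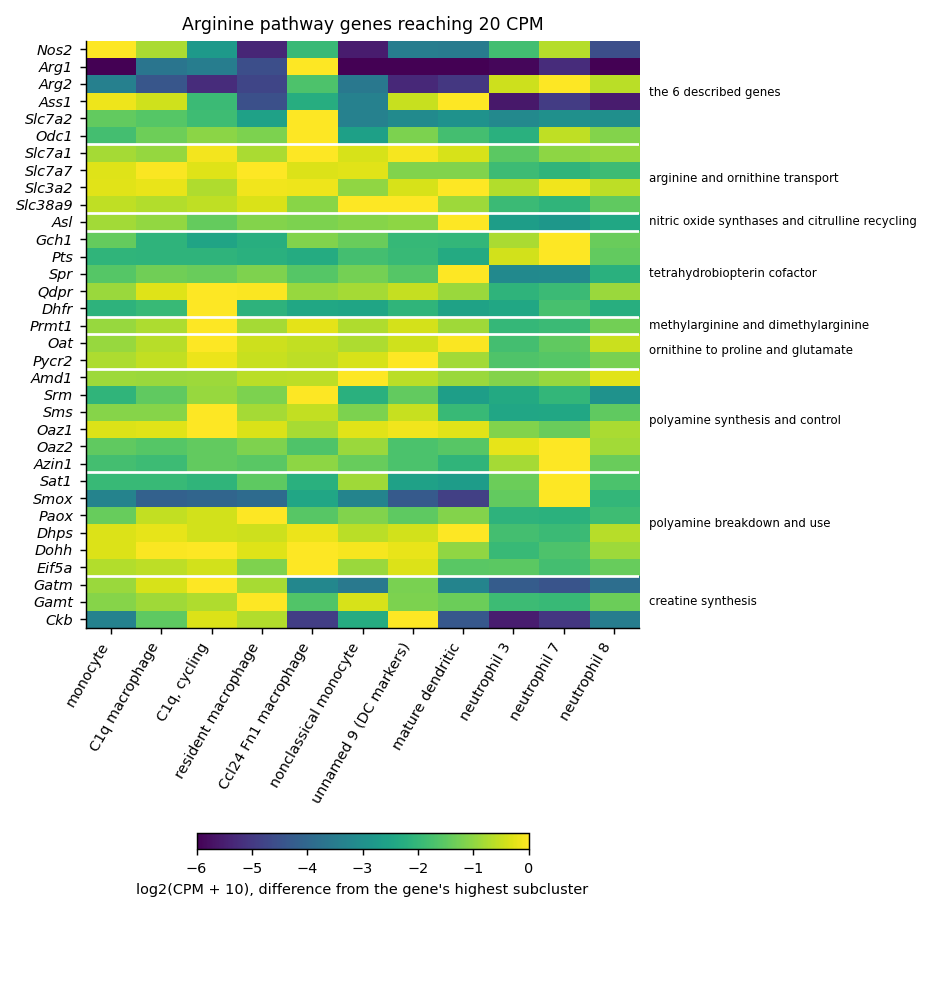
Levels of the arginine pathway genes that reached 20 CPM, as log2(CPM + 10) minus the value in the subcluster where the gene is highest, over 11 myeloid subclusters with all libraries pooled, ordered by list. Gch1, Smox and Sat1 were highest in neutrophil-like subcluster 7 (292, 931 and 1543 CPM), and Slc7a2, Odc1 and Srm in the Ccl24 Fn1 macrophages (93.7, 311 and 88.8 CPM).

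Over 20 groups of subcluster and library with at least 50 cells, the log2 levels of the members were compared with those of 5586 genes as a description, since the groups share libraries and depth. Arg1 was most like Ecm1 (Pearson's r = 0.88), Ccl2 (0.87) and Hmox1 (0.83), and Slc7a2 was most like Ms4a8a (0.88), Dok2 (0.86) and Tma16 (0.85). Nos2 was most like Upp1 (0.87), Pgm2 (0.86) and Cd274 (0.85), the last encoding PD-L1. Arg2 was most like Sgms2 (0.96), Dmxl2 (0.96) and Trem1 (0.95), and Ass1 like Procr (0.92), Klrk1 (0.91) and Psme2 (0.90). Odc1 was most like Hnrnpu (0.86), Hnrnpk (0.85) and Cdv3 (0.85). Among the members, Arg1 and Slc7a2 had the highest coefficient, 0.80, and Arg2 and Ass1 the lowest, -0.54, with 0.40 for Nos2 and Arg1 and 0.49 for Nos2 and Ass1.

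Counted over the 6 genes, the Ccl24 Fn1 subcluster had the largest share of cells with 5 or 6 of them. All 6 were found in 75 of its 869 cells and 5 of them in a further 131, against 33 and 217 of 3128 monocyte-like cells, 57 and 264 of 2524 C1q macrophage-like cells and 0 and 1 of 1381 resident cells. Median depths were 14960, 13313, 18070.5 and 12908 UMIs, so the resident cells were about as deep as the monocyte-like cells. None of the 6 genes was found in 45 of the 869 Ccl24 Fn1 cells, against 44 of the 2524 C1q cells. The order of these subclusters thus depended on the number of genes asked for.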

How the data were processed

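The authors sequenced the cells of 4 grafts and made UMI counts per gene and cell by Cell Ranger 3.0.0 (mm10; gene models of Ensembl 92), per the file headers and the methods. The deposited counts are one merged matrix with no normalization. The submitters' processing notes also name CASAVA 1.8 and Seurat.

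Cells with over 200 genes and under 20% mitochondrial UMIs were kept (44626), 13 mitochondrial genes were removed, and the 5% of cells per library most like simulated doublets (2231) were left out, with 50 neighbours. Principal components (10, from 2000 variable genes) fed a graph with 30 neighbours and Leiden clustering at resolution 0.8, and at 0.5 for myeloid cells, without the members and pathway genes. A type needed 3 or more markers that were 2-fold over the other clusters and in 10% of cells. Thinned shares come from cells with at least 1000 UMIs.

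Named genes are the 6 members, the pathway and context lists (interferon gamma, inflammatory, alternative activation, hypoxia), markers, the 3 genes most like each member, and the 5 largest folds between cells with and without Nos2 or Arg1; other markers in those contrasts were named after their values were seen. Members and lists were chosen with earlier results of these data known. Clustering, intervals, folds and doublet marking were tested on simulated data. Graft comparisons were left out, since suffixes are not paired with grafts. Clustering used igraph 0.11.9, leidenalg 0.10.2 and scikit-learn 1.9.0, intervals scipy 1.17.1, and figures matplotlib 3.10.9, under Python 3.11.15 with numpy 2.4.6 and pandas 2.3.3.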

Additional observations from a re-analysis of the deposited data

How the results depend on the processing

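Each gene's level in its highest myeloid type (455 CPM for Nos2 in monocyte-like cells, 6269.9 for Arg1, 93.7 for Slc7a2 and 311 for Odc1 in the Ccl24 Fn1 subcluster, 577 for Arg2 in neutrophil-like cells, 591 for Ass1 in mature dendritic-like cells, all libraries pooled) and the share of Arg1 cells with Nos2 (30.2%) were recomputed under other settings; 41 of 63 values moved by less than their counting interval. This count takes in runs without a library that held few or none of a type's cells, whose values could hardly move. Nos2, for one, was 455 CPM without library 2 and without library 3. The 8 cases with no value, given below, are outside the 63. Subclustering at resolution 0.3 gave 376 CPM for Nos2, 5783 for Arg1, 87.0 for Slc7a2 and 289 for Odc1, and at 1.0 it gave 487 for Nos2 and 6446 for Arg1. With doublets kept Nos2 was 385, Arg1 5752 and Odc1 288 CPM, and with all variable genes Nos2 was 377 and Arg1 6382 CPM. Weighting cells equally gave 489 for Nos2, 5467 for Arg1, 595 for Arg2, 105 for Slc7a2 and 272 for Odc1. Without library 1 Arg1 was 6323 CPM, without library 3 it was 6349 CPM, and without library 2 Arg2 was 487 CPM. Changes past 1.5 times were Nos2 with at least 500 genes per cell, 242 CPM, and the share with Nos2 in thinned cells, 10.5% at 1000 and 14.6% at 2000 UMIs. There were 8 cases with no value: without library 2 the Ccl24 Fn1 subcluster had 28 cells, and without library 4 the monocyte-like type had 2 and the mature dendritic-like type 15; the latter was not named at resolution 0.3 or with doublets kept. No paired analysis was possible because no label pairs a barcode suffix with a graft and no test was made. With 1 pooled sample, counting intervals leave out the spread between animals.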
